A study of Homo sapiens with 6 samples.

Results

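The enzymes described here supply or trim the deoxynucleotides (dNTPs) used for DNA synthesis. They are 8 genes, RRM1, RRM2, TYMS, TK1, DUT, DCK, DTYMK and SAMHD1, chosen by name from the 35474 genes of the deposited count table. All 8 passed the filter on low counts that left 20776 genes for testing. A549, a human lung adenocarcinoma cell line, was transfected with siRNA against BAP18 (siBAP18) or with nontargeting siRNA (siCtrl), and poly(A) RNA was sequenced 48 h later from 3 cultures per group. The labels name no other agent. The sources used here do not state which of the study's BAP18 siRNAs was transfected. BAP18 is a subunit of chromatin complexes that bind trimethylated histone H3 lysine 4.

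Cells make deoxynucleotides by 2 routes. In the de novo route, ribonucleotide reductase, built from the large subunit RRM1 and the small subunit RRM2, reduces ribonucleoside diphosphates, and thymidylate synthase (TYMS) methylates dUMP with a folate cofactor. In the salvage route, the cytosolic kinases TK1 and DCK phosphorylate deoxynucleosides, and TK2 and DGUOK do so in mitochondria. DUT hydrolyzes dUTP to dUMP and keeps uracil out of DNA, DTYMK phosphorylates dTMP, and SAMHD1 breaks dNTPs down. Many of the genes for de novo synthesis and cytosolic salvage are transcribed as cells enter S phase, and in proliferating tumor cells several of the products are drug targets.

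Total counts were 46035635 to 53657450 in the siCtrl libraries and 42094524 to 56548620 in the siBAP18 libraries. Mitochondrial genes took 6.86 to 7.43% of the counts in siCtrl and 5.27 to 6.14% in siBAP18. The targeted gene, listed as C17orf49, had 743, 751 and 705 counts in siCtrl and 120, 137 and 108 in siBAP18 (log2 fold change −2.65, adjusted p = 7.31e-16 by edgeR). RNASEK-C17orf49, listed apart on the same strand, shares 1163 bases of exon with it. At 21.1 RPKM in siCtrl, against 5.72 RPKM for C17orf49, it fell less (log2 fold change −0.24, adjusted p = 0.0138 by edgeR). MIR497HG, opposite C17orf49 with 1466 shared bases, fell by 2.57 on the log2 scale, and RNASEK, with 38, rose by 0.35. The fall over all BAP18 transcripts was not tested. Of 7 epithelial markers of A549, all were listed, with 468428 to 724385 counts per library for KRT8. Their summed level was 5365 to 5579 RPKM in siCtrl and 3774 to 4215 RPKM in siBAP18. At an adjusted p under 0.05 by edgeR, 6 of the 7 were lower and 0 higher, against 25.1% and 24.5% of all genes tested. The largest fall was that of CDH1 (log2 fold change −1.32). The part of these markers in the results was not tested. RPKM are the deposited reads relative to gene length and library total. Of 6 markers of leukocytes, endothelium and fibroblasts, 3 had rows, and PECAM1 had 8 to 45 counts per library, VWF 0 to 6 and COL1A1 349 to 611. In these bulk cultures, a smaller share of cells in S phase and less RNA per cell cannot be told apart.

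Of the 8 enzymes, 7 were lower in siBAP18 cells and 0 were higher at an adjusted p under 0.05 from edgeR's quasi-likelihood test. The 7 were RRM1, RRM2, TYMS, TK1, DUT, DCK and SAMHD1, with falls between 22.1% for DUT and 43.6% for TK1. DTYMK did not pass the test in either direction. Of all genes tested, 25.1% were lower and 24.5% were higher by the same rule. In 7 of the 8 genes every siBAP18 library lay below every siCtrl library in CPM (counts relative to the library total, scaled by TMM), which held for 29.0% of all genes, while 27.6% of all genes lay above. The median log2 fold change of the 8 was −0.56, against 0.0010 for all genes tested. None passed the additional threshold of an absolute log2 fold change over 1, either with edgeR or with the DESeq2 and limma alternatives, and dropping the adjustment of p left that count at 0. That threshold was passed by 3.74% of all genes with lower and 4.72% with higher expression.

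**Figure D1:**
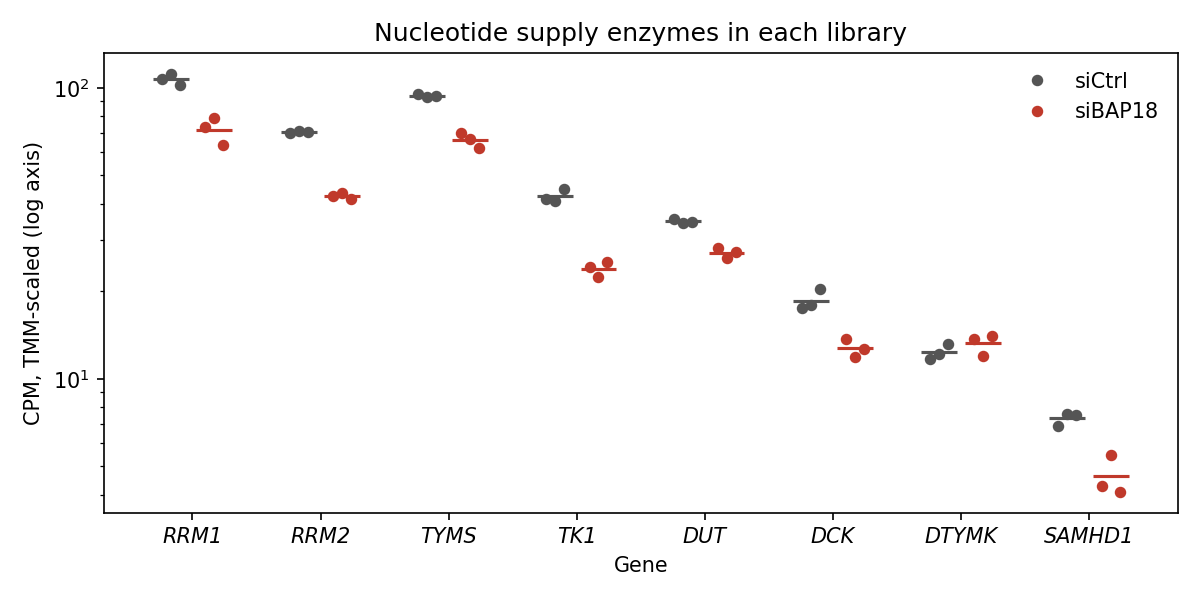
Each point is 1 library and each short line the mean of 3, in CPM scaled by TMM on a log axis, for the 8 genes in siCtrl (grey) and siBAP18 (red). The groups were separated for every gene but DTYMK, whose siBAP18 libraries (12.00 to 14.04 CPM) overlapped the siCtrl libraries (11.7 to 13.2 CPM).

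The 2 subunits of ribonucleotide reductase both fell. RRM2, the small subunit that carries the tyrosyl radical and limits the enzyme's activity in S phase, lies at 10122328 to 10131419 of chromosome 2 (+ strand). In replicates 1, 2 and 3, in this order here and throughout, its CPM was 70.0, 71.0 and 70.4 in siCtrl and 42.4, 43.6 and 41.6 in siBAP18. Positions are on GRCh38. The gap between the groups was far wider than the spread in either. Its log2 fold change was −0.73 (SE 0.0658, adjusted p = 1.25e-09 by edgeR), a fall of 39.6%. RRM1, the large catalytic subunit, lies at 4094707 to 4138876 of chromosome 11 (+ strand). It was at 107.1, 111.7 and 102.3 CPM in siCtrl and at 73.2, 79.0 and 63.4 CPM in siBAP18. The siBAP18 libraries spread more widely for RRM1 than for RRM2, with replicate 3 lowest, but did not reach the siCtrl range. The log2 fold change of RRM1 was −0.57 (SE 0.0752, adjusted p = 6.04e-07 by edgeR).

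RRM2B encodes a small subunit that can replace RRM2 outside S phase and is a known p53 target. Its level was low, at 13.1, 14.3 and 13.8 CPM in siCtrl and 12.99, 11.7 and 10.3 CPM in siBAP18. The highest siBAP18 library lay just under the lowest siCtrl library. Its log2 fold change was −0.23 (adjusted p = 0.0393 by edgeR), and the adjusted p was above 0.05 in 8 of the 16 alternatives, reaching 0.141 without siCtrl replicate 2. Levels per length, in RPKM, were also compared within each library. The ratio of RRM2 to RRM2B was 5.97, 5.55 and 5.73 in siCtrl and 3.66, 4.17 and 4.52 in siBAP18, and the groups did not overlap. The ratio of RRM2 to RRM1 was 0.551, 0.536 and 0.580 in siCtrl and 0.489, 0.465 and 0.553 in siBAP18, with siBAP18 replicate 3 inside the siCtrl range. The difference in mean log2 ratio was −0.49 for RRM2 to RRM2B (exact permutation p = 0.1, two-sided) and −0.15 for RRM2 to RRM1 (exact permutation p = 0.3, two-sided). With 3 libraries against 3, 0.1 is the smallest p this test can give, and no ratio could reach 0.05.

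Of the thymidylate enzymes, TYMS and DUT fell and DTYMK did not. TYMS, the target of fluoropyrimidine drugs, lies at 657604 to 673578 of chromosome 18 (+ strand) and had the highest RPKM of the 8 genes in both groups. It was at 95.1, 92.7 and 93.9 CPM in siCtrl and 69.8, 66.6 and 62.1 CPM in siBAP18. All 3 siBAP18 libraries were well under the siCtrl libraries, which differed from each other by little. The log2 fold change of TYMS was −0.50 (SE 0.0670, adjusted p = 7.37e-07 by edgeR). DUT (48331011 to 48343373 of chromosome 15, + strand) was at 35.3, 34.4 and 34.7 CPM in siCtrl and 28.2, 26.0 and 27.3 CPM in siBAP18. At −0.36 (SE 0.0698, adjusted p = 1.23e-04 by edgeR), its log2 fold change was the smallest of the 7 that passed, although its groups did not overlap either. The nuclear and mitochondrial forms of DUT come from 1 gene and were not separated in these gene-level counts.

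DTYMK makes dTDP and stands where the de novo and salvage routes to dTTP meet. It lies at 241675742 to 241686991 of chromosome 2 (− strand). It was at 11.7, 12.2 and 13.2 CPM in siCtrl and at 13.7, 12.0 and 14.04 CPM in siBAP18. Only siBAP18 replicate 2 lay within the siCtrl range, and the other two lay above it. The log2 fold change was 0.10 (SE 0.0891, adjusted p = 0.389 by edgeR), and its 95% interval ran from −0.087 to 0.28. That interval did not overlap those of the other 7 genes, whose upper limits lay between −0.68 and −0.22. DTYMK stayed above an adjusted p of 0.05 in all 16 alternatives, with log2 fold changes from 0.053 to 0.17.

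The cytosolic salvage kinases fell while their mitochondrial counterparts rose. TK1, the thymidine kinase of S phase, lies at 78174075 to 78187233 of chromosome 17 (− strand). It was at 41.4, 40.8 and 45.0 CPM in siCtrl and at 24.2, 22.3 and 25.2 CPM in siBAP18. This was the largest fall among the 8 genes, with −0.83 as the log2 fold change (SE 0.0735, adjusted p = 9.21e-10 by edgeR). DCK, which activates deoxycytidine and its drug analogs such as gemcitabine and cytarabine, lies at 70992538 to 71030914 of chromosome 4 (+ strand). It was at 17.5, 17.9 and 20.4 CPM in siCtrl and at 13.7, 11.9 and 12.7 CPM in siBAP18. No siBAP18 library of DCK reached the lowest siCtrl library, and the log2 fold change was −0.54 (SE 0.0857, adjusted p = 9.30e-06 by edgeR).

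TK2, the mitochondrial thymidine kinase, was at 31.3, 31.1 and 30.8 CPM in siCtrl and at 34.5, 35.4 and 38.9 CPM in siBAP18. Its log2 fold change was 0.22 (adjusted p = 0.0115 by edgeR), but without siCtrl replicate 3 the adjusted p was 0.0547. DGUOK, the mitochondrial deoxyguanosine kinase, was at 17.9, 16.3 and 18.2 CPM in siCtrl and at 30.5, 29.1 and 29.3 CPM in siBAP18. Its rise of 69.7% (log2 fold change 0.76, SE 0.0746, adjusted p = 4.88e-09 by edgeR) was about as large on the log2 scale as the fall of TK1. Both mitochondrial kinases had all siBAP18 libraries above all siCtrl libraries, as did 27.6% of all genes, although TK2 moved much less than DGUOK. RP11-403P17.4, opposite TK2 with 1056 shared bases of exon, rose too (log2 fold change 0.33, adjusted p = 0.0254 by edgeR). RP11-403P17.3 and RP11-403P17.5, which also share exon bases with TK2, did not pass. DGUOK-AS1, opposite DGUOK with 62 shared bases, rose (log2 fold change 0.56, adjusted p = 0.00129 by edgeR). Reads from shared stretches cannot be assigned to 1 gene here.

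**Figure D2:**
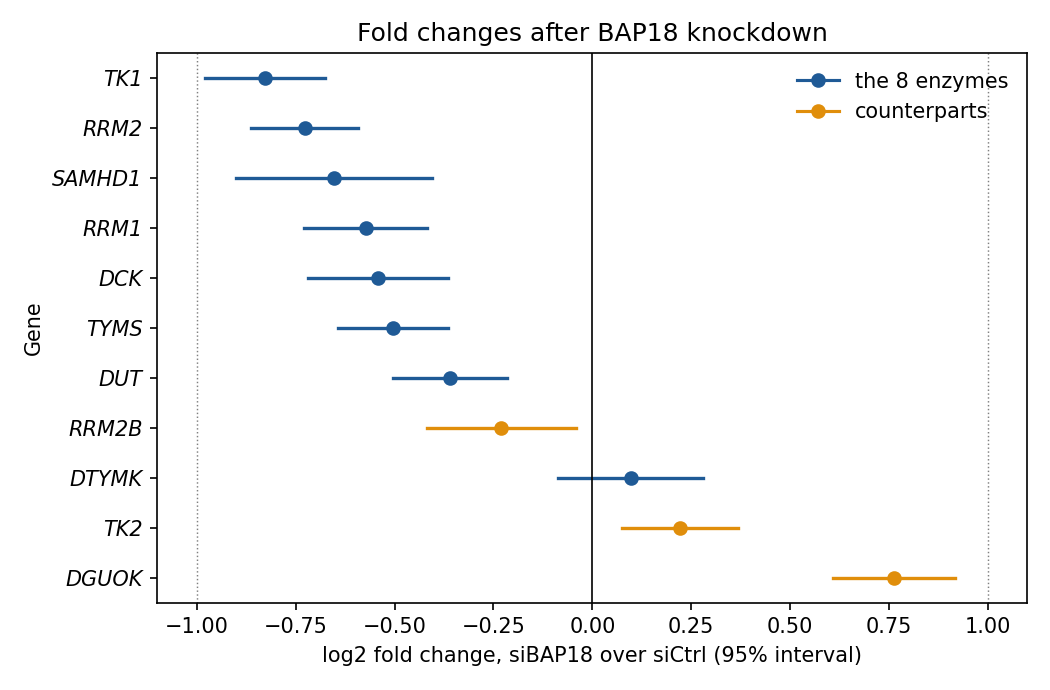
Points are log2 fold changes of siBAP18 over siCtrl from edgeR and lines their 95% intervals, for the 8 enzymes (blue) and 3 counterparts (orange), with dotted lines at −1 and 1. No gene reaches −1 or 1, 7 of the 8 enzymes lie between −0.83 and −0.36, RRM2B lies at −0.23, and DTYMK, TK2 and DGUOK lie above 0.

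The cytosolic kinases lay below and the mitochondrial kinases above all siCtrl libraries in every siBAP18 library. Their ratio was therefore bound to be lower in every siBAP18 library than in any siCtrl library. The RPKM ratio of TK1 to TK2 was 5.09, 5.06 and 5.62 in siCtrl and 2.70, 2.43 and 2.49 in siBAP18. The ratio of DCK to DGUOK was 0.440, 0.497 and 0.506 in siCtrl and 0.202, 0.185 and 0.196 in siBAP18. Mean log2 ratios differed by −1.05 for TK1 to TK2 and by −1.31 for DCK to DGUOK, each with an exact permutation p = 0.1 (two-sided, n = 3 per group). The separation of the single genes fixed this p in advance. The ratio of the de novo to the salvage thymidylate enzyme, TYMS to TK1, was 1.73, 1.71 and 1.57 in siCtrl and 2.17, 2.25 and 1.86 in siBAP18, and was higher in every siBAP18 library (exact permutation p = 0.1, two-sided). Over the 6 ratios compared, the Benjamini-Hochberg adjusted p of these exact tests was 0.15 for the 4 without overlap.

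**Figure D3:**
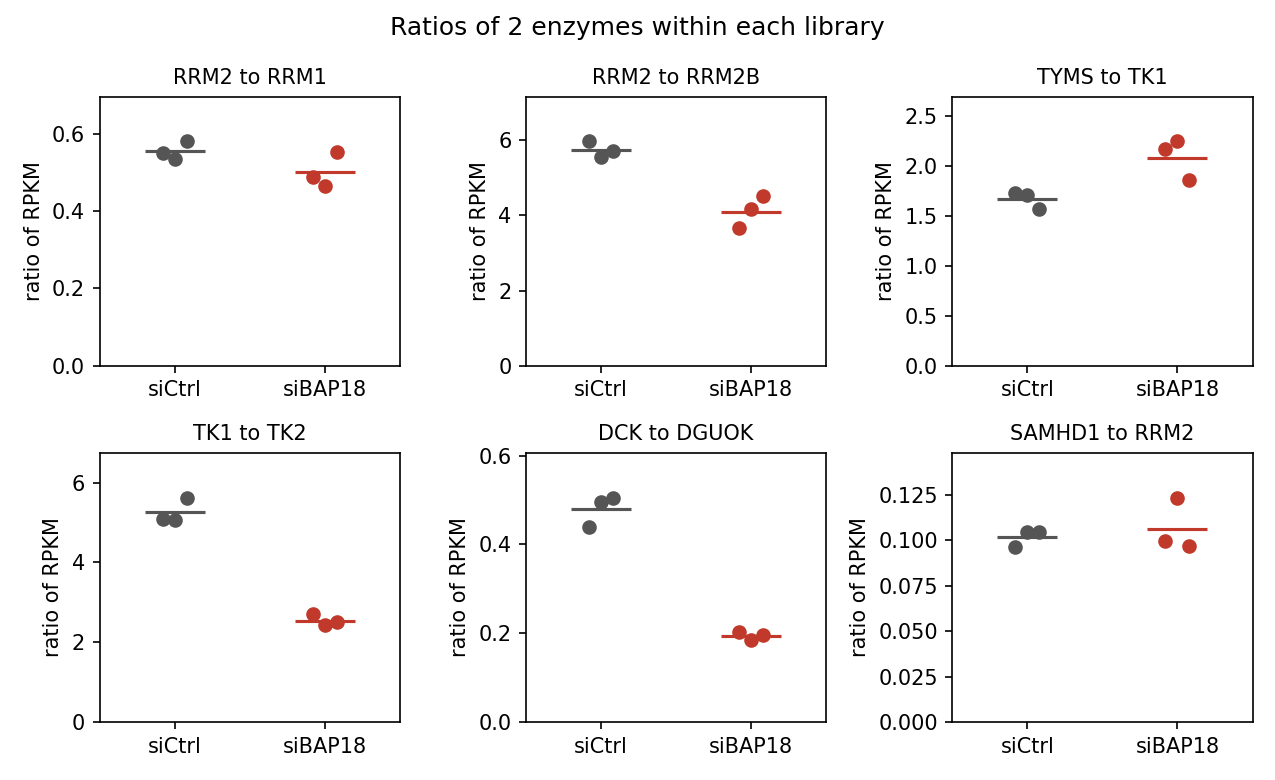
Each panel plots the ratio of the RPKM values of 2 genes on a linear axis from 0, with a point per library and a short line at the geometric mean of 3. The siBAP18 libraries were clear of the siCtrl libraries for RRM2 to RRM2B, TYMS to TK1, TK1 to TK2 and DCK to DGUOK, and overlapped them for RRM2 to RRM1 and SAMHD1 to RRM2.

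SAMHD1, the dNTP triphosphohydrolase that works against the enzymes above and restricts viral reverse transcription, fell as well. It lies at 36890229 to 36951843 of chromosome 20 (− strand) and had the lowest level of the set, with 166 to 366 counts per library. It was at 6.88, 7.57 and 7.51 CPM in siCtrl and at 4.30, 5.48 and 4.09 CPM in siBAP18. The siBAP18 libraries varied most here, with replicate 2 above the other two, and stayed below siCtrl. The log2 fold change was −0.65 (SE 0.120, adjusted p = 6.42e-05 by edgeR). The ratio of SAMHD1 to RRM2 was 0.0967, 0.105 and 0.105 in siCtrl and 0.0997, 0.124 and 0.0968 in siBAP18 (exact permutation p = 0.8, two-sided), and the groups overlapped. The mean log2 ratio differed by 0.055, and by 0.31 with RPKM + 1, and with 3 libraries per group this test could not have reached 0.05. SAMHD1 is inducible by interferon in many cells. Of 12 interferon-response genes, 9 were tested, and 4 were lower and 3 higher, against 25.1% and 24.5% of all genes. Their summed level ran from 27.9 to 28.7 RPKM in siCtrl and from 25.2 to 26.3 RPKM in siBAP18. OAS1 alone averaged 16.3 RPKM in siCtrl and 10.5 RPKM in siBAP18, so much of the sum was this gene. The 4 lower genes were OAS1 (log2 fold change −0.63), DDX58 (−0.61), IFIT2 (−0.46) and IFIT3 (−0.43). The 3 higher genes were MX1 (1.21), ISG15 (0.93) and IFI6 (0.62). The part of the interferon-response genes in the SAMHD1 result was not tested.

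Per length, the order of the 8 genes in siCtrl was TYMS (37.9 ± 0.224 RPKM, SD, n = 3), RRM1 (25.6 ± 1.36), TK1 (22.7 ± 1.10), RRM2 (14.2 ± 0.246), DUT (9.46 ± 0.0794), DCK (5.75 ± 0.462), DTYMK (5.04 ± 0.308) and SAMHD1 (1.45 ± 0.0856). The mean ± SD ranges of the neighbors DCK and DTYMK overlapped, although their libraries (5.37 to 6.26 and 4.74 to 5.35 RPKM) did not, and those of the other neighbors were apart. In siBAP18 the order was the same but for these 2 genes. DTYMK, at 5.41 ± 0.311 RPKM (SD, n = 3), stood above DCK, at 3.96 ± 0.268 RPKM (SD, n = 3). The level of TYMS was higher than that of 94.0% of the genes tested in siCtrl, and that of SAMHD1 was higher than 42.1%.

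Several genes that overlap the 8 enzymes also passed the test. RRM1-AS1 lies opposite the 3′ end of RRM1, from 4137116 to 4138257, and shares 63 bases of exon with it. Its level per length, 97.3 RPKM in siCtrl, was above that of RRM1, and at −0.51 (adjusted p = 2.17e-06 by edgeR) its log2 fold change was close to that of RRM1. ENOSF1, convergent with TYMS and sharing 465 bases of exon with it, was lower (log2 fold change −0.57, adjusted p = 1.33e-07 by edgeR). TYMSOS, opposite the start of TYMS with 183 shared bases, was lower too (log2 fold change −0.38, adjusted p = 0.0105 by edgeR). DCK shares 199 bases with MOB1B on the same strand, and MOB1B was lower (log2 fold change −0.78, adjusted p = 5.58e-07 by edgeR). TLDC2 meets the 3′ end of SAMHD1 with 205 shared bases, and its few counts went from 30, 31 and 27 to 9, 9 and 6 (log2 fold change −1.93, adjusted p = 2.09e-04 by edgeR). An antisense gene opposite the start of DUT, RP11-154J22.1, shares 533 bases and did not pass (log2 fold change 0.021, adjusted p = 0.921 by edgeR). The libraries were made with a strand-specific kit, but the use of strand in counting is not given in the sources used here, so reads from shared stretches cannot be assigned to 1 gene. No overlapping gene was found for RRM2, TK1 or DTYMK. Among pseudogenes named for the 8 enzymes, 5 were listed, of RRM2 and DUT, and none exceeded 6 counts in any library.

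Promoter words were looked up because 7 of the genes fell together and 1, DTYMK, did not. The windows are those of RefSeq on GRCh38.p14, 300 bases from 250 before to 50 after each annotated start, with 1 to 4 windows a gene. The words, searched on both strands, were the E2F words TTTCCCGC, TTTCGCGC, TTTGCCGC and TTTGGCGC, the box CCAAT bound by NF-Y, and the cell cycle homology words TTTGAA and TTCGAA. Each line gives a place where an E2F word or CCAAT, in capitals, was found, with a few bases on either side, 5′ to 3′ on the strand of the gene, so that an inverted CCAAT reads ATTGG.
RRM1 (chr11:4094649-4094669, + strand): gtccatatCCAATggggccca
RRM2 (chr2:10122608-10122628, + strand): aggcgcagCCAATgggaaggg
RRM2 (chr2:10122638-10122658, + strand): tggcacagCCAATgggaaggg
RRM2 (chr2:10122665-10122685, + strand): caccaaagCCAATgggaaggg
RRM2, other window (chr2:10122318-10122331, + strand): tCCAATcgctgctc
TYMS (chr18:657606-657629, + strand): ggacggccGCGGGAAAaggcgcgc
TK1 (chr17:78187117-78187137, − strand): gggcgctgATTGGccccatgg
TK1 (chr17:78187086-78187106, − strand): ggctcgtgATTGGccagcacg
DUT (chr15:48332152-48332180, + strand): ctgGCGGGAAAtttcggtTTTGGCGCgct
DCK (chr4:70993662-70993685, + strand): gcctccgcGCGCCAAAgtcaaacc
DTYMK (chr2:241686895-241686915, − strand): ggccccggCCAATcccttcga
DTYMK (chr2:241686827-241686847, − strand): gacgccggCCAATgggagctc
SAMHD1 (chr20:36951735-36951764, − strand): caggaggCCAATaggctgCCAATactcctt

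All the places but that in RRM1 lie inside the span of the gene in GENCODE 29, downstream of its outermost start. CCAAT was found in 5 of the 8 genes, against 39.7% of the 27305 genes with a window. RRM2 held it 3 times in 1 window, beginning 123, 93 and 66 bases before the start, and each copy was followed by the same 8 bases, gggaaggg. Its other window held CCAAT 1 time, 249 bases before that start. TK1 held it inverted, 77 and 46 bases before a start, SAMHD1 49 and 38 bases before its start, and RRM1 28 bases before its start. DTYMK held CCAAT as well, 92 and 24 bases before its start. An E2F word was found in 3 of the 8 genes, against 3.99% of all genes with a window. It began 39 bases before the start of TYMS and 22 bases after that of DCK, and DUT held 2, beginning 42 and 27 bases before an internal start. A cell cycle homology word was found in RRM1, DUT and DTYMK, 3 of the 8 genes, against 19.5%. The matches are letters in a window, and RRM2, TK1, SAMHD1 and DTYMK each held CCAAT 2 times or more.

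Matches to the siRNAs were also looked up, since a guide strand can lower RNAs whose 3′ UTR pairs with its bases 2 to 8. Of the 8 genes, only DUT held such a word of 7 bases, for the guide of siBAP18#2, which 12.5% of 13746 genes held. The words of siBAP18#1 (in 15.5% of genes), siBAP18#3 (in 7.79%) and siCtrl (in 3.37%) were in 0 of the 8.

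Beyond the 8 enzymes, lists of nucleotide metabolism genes were counted by the same test, against 25.1% lower and 24.5% higher among all genes tested. In the folate and thymidylate cycle, 13 of 20 genes tested were lower and 3 higher, TYMS included, with a median log2 fold change of −0.41. SHMT1, which makes the methylene-folate used by TYMS, fell by 0.62 on the log2 scale, and GGH, which trims folate polyglutamates, fell by 0.63. MTHFD1L, a mitochondrial enzyme that releases formate, rose by 0.59. In de novo purine synthesis, 7 of 13 were lower, a share above the 25.1% of all genes, and 2 were higher, a share below the 24.5% (median −0.19). PRPS2, which makes phosphoribosyl pyrophosphate, fell by 0.79 on the log2 scale, PPAT, the first committed enzyme, fell by 0.83, and PAICS fell by 0.57. ADSL, a later enzyme of the pathway, rose by 0.50. Without siBAP18 replicate 2, 4 genes of this list were higher.

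In de novo pyrimidine synthesis, 1 of 5 genes was lower and 1 higher, shares a little under those of all genes (25.1% and 24.5%). CAD, which carries out its first 3 steps, rose by 0.36 (adjusted p = 6.85e-05 by edgeR), and DHODH was lower (log2 fold change −0.24, adjusted p = 0.0145 by edgeR). DHODH was above 0.05 with limma and without siCtrl replicate 1 or 3. The remaining 3 did not pass, and the median was 0.10.

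Among salvage kinases and enzymes, 8 of 17 were lower, against 25.1% of all genes, with TK1 and DCK among them. A further 4 were higher, a share close to the 24.5% of all genes. The median of the list was −0.098. Without TK1 and DCK, 6 of 15 were lower and the median was 0.019. UPP1, which cleaves uridine, rose by 1.45 (adjusted p = 1.19e-13 by edgeR), and SLC29A1, the nucleoside transporter ENT1, fell by 0.69 on the log2 scale. Of the nucleoside mono- and diphosphate kinases (median 0.054), 6 of 16 were lower, against 25.1% of all genes. A further 4 were higher, a share close to the 24.5% of all genes. CMPK1, the UMP and CMP kinase, fell by 0.61 on the log2 scale and AK4 fell by 1.12, while the guanylate kinase GUK1 rose by 0.55 on the same scale and the adenylate kinase AK1 rose by 0.61. In the list of dNTP pool cleaning and nucleotide breakdown, 8 of 16 were lower, including SAMHD1 and DUT, and 6 higher (median −0.25), both shares above those of all genes. XDH, which oxidizes xanthine to urate, rose by 1.17, and ITPA, which removes dITP, rose by 0.54. The nucleotidases NT5E (log2 fold change −0.49) and NT5C3B (0.45) moved in opposite directions. In the list headed by ribonucleotide reductase, 6 of 8 were lower and 0 higher by edgeR, against 25.1% and 24.5% of all genes. DTYMK (unadjusted p = 0.287 by edgeR) and DCTD (unadjusted p = 0.494 by edgeR) did not pass. The list holds 6 of the 8 enzymes beside RRM2B and DCTD. Without these enzymes, 1 of 2 genes was lower, RRM2B, whose adjusted p was above 0.05 in several alternatives.

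**Figure D4:**
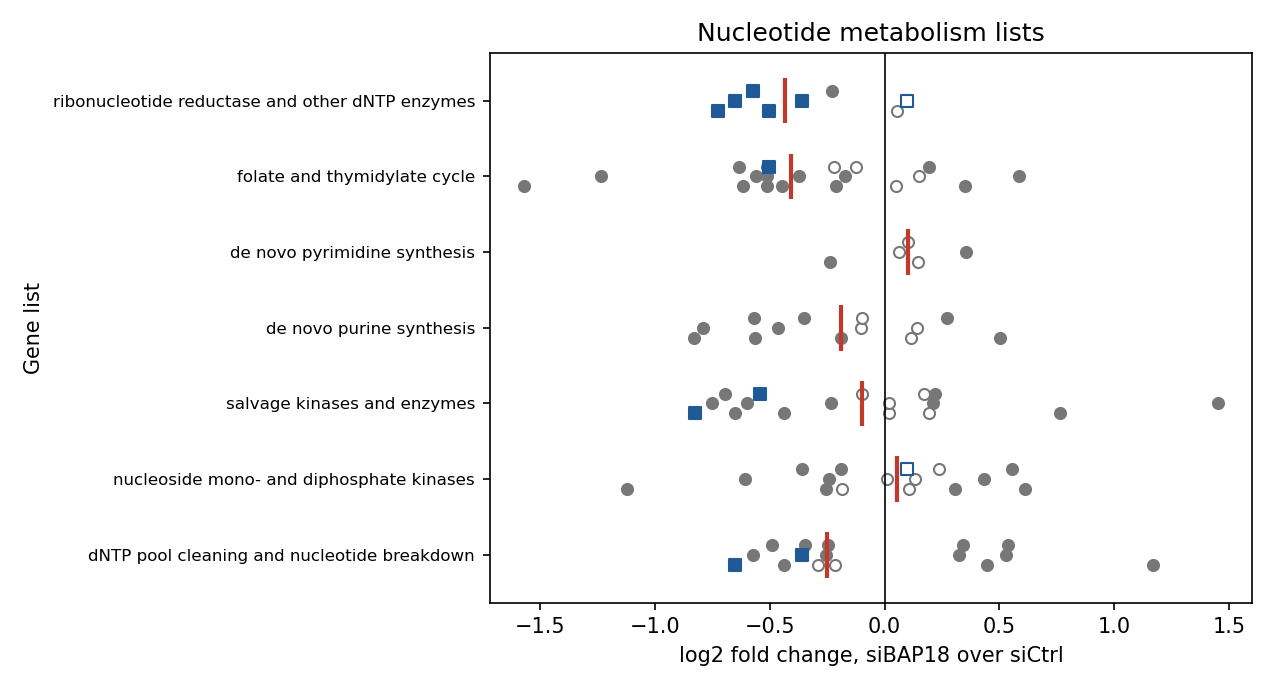
Each point is the log2 fold change of 1 gene in 7 lists of nucleotide metabolism genes, with squares for the 8 enzymes, filled symbols for an adjusted p under 0.05 and a red line at the list's median. The folate and thymidylate list is centered at −0.41, while the pyrimidine list (0.10) and the kinase list (0.054) have medians above 0.

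The genes whose log2 CPM followed RRM2 most closely over the 6 libraries, among 14222 genes averaging 1 or more in log2 CPM, were MATN2, SLC6A6, HELLS, GSR and CEP55, with Pearson r of 0.9995 to 0.9998. For SAMHD1 they were USP34, RNFT1, TGOLN2, GON4L and KIF16B, with Pearson r of 0.9978 to 0.9991. These correlations describe 6 points that fall into 2 groups, so genes picked by them had to fall with RRM2 and SAMHD1. All 10 genes were lower in siBAP18 cells. All the genes matched to RRM2 fell further than RRM2. On the log2 scale the falls were 1.02 for MATN2, 1.66 for SLC6A6, 1.45 for HELLS, 0.96 for GSR and 1.11 for CEP55. Of these, HELLS is a chromatin remodeler and CEP55 a cytokinesis protein.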

How the data were processed

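A549 RNA from 3 siCtrl and 3 siBAP18 cultures was sequenced after poly(A) selection, per the labels. The authors deposited whole-number read counts per gene, not normalized. The deposited RPKM values were found to equal each count scaled by listed gene length and library total. The aligner, the counter and its use of strand are not given in the sources used here. Listed spans of 6 of the 8 enzymes equal those of GENCODE 29 on GRCh38.

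Counts were filtered with filterByExpr, scaled by TMM and fitted over 20776 genes, with condition as the only term, in edgeR 4.0.16 (R 4.3.3). Its quasi-likelihood test was used with Benjamini-Hochberg adjustment over all of them. The SE is the absolute log2 fold change over the square root of F, and intervals are 95%. Ratios of RPKM were compared by two-sided exact permutation over libraries (scipy 1.17.1). Other settings used DESeq2 1.42.0, limma 3.58.1 on log2 RPKM (pseudocount 1 or 0.1, mean RPKM of 0.5 or more), other scalings and filters, a replicate block and each library left out. The fits were tested on simulated data. Between replicates, chi-square over its degrees of freedom was 4.17 to 4.87 in siCtrl and 10.97 to 25.8 in siBAP18. None were therefore copies, and the siBAP18 libraries differed more from each other. The labels call the replicates biological, and p-values measure the spread between these cultures.

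The 8 enzymes and the gene lists were chosen with earlier results of these data known. Named genes were the 8, RRM2B, TK2 and DGUOK as counterparts (1 further counterpart is not reported here), BAP18, genes overlapping the 8, up to 4 genes per list with the smallest adjusted p among those that passed, and the 5 genes most like RRM2 and SAMHD1. DCTD, the marker and interferon genes, and genes overlapping TK2, DGUOK or BAP18 were named beside a result. The siRNA words are the 7 bases that pair with guide bases 2 to 8, searched in GENCODE 29 3′ UTRs.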

Additional observations from a re-analysis of the deposited data

How the results depend on the processing

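In all 16 alternatives to the edgeR fit, the 7 lower enzymes stayed under an adjusted p of 0.05 and DTYMK stayed above it. The alternatives were a count test by DESeq2 (Wald), the likelihood ratio test, scaling by DESeq2's factors, by upper quartiles or by library totals, both other filters on low counts, both limma fits on RPKM, the replicate block and the 6 fits without 1 library. Log2 fold changes of the 7 lay between −0.86 for TK1 and −0.32 for DUT, and SAMHD1, the gene with the fewest counts, ranged most, from −0.80 to −0.35. Same-numbered libraries did not deviate together (Pearson r 0.025, 0.12 and 0.048), and with the replicate block 7 enzymes were lower and 0 higher, as without it. The log2 ratio of SAMHD1 to RRM2 went from 0.055 to −0.055 without siBAP18 replicate 2 (−0.055 to 0.12 over left-out libraries). With RPKM + 1 the differences were 0.31 for SAMHD1 to RRM2, −0.96 for TK1 to TK2 and −1.17 for DCK to DGUOK. In de novo pyrimidine synthesis 0 genes were lower with either limma fit, and over left-out libraries 0 to 1 were lower and 1 to 2 higher. In purine synthesis 2 to 4 were higher. Among antisense genes that did not pass, RP11-154J22.1 ranged from −0.18 (without siBAP18 replicate 1) to 0.16 over left-out libraries, with −0.0043 without siCtrl replicate 2, and RP11-403P17.3, opposite TK2, from −0.015 (without siBAP18 replicate 3) to 0.23. The cause of these changes was not tested.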
